A study of Mus musculus with 11 samples.

Results

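The genes of the T cell receptor alpha chain were taken as every gene whose name starts with Trav, Traj or Trac and whose biotype is a T cell receptor biotype. The rule found 189 of the 54532 genes in the table, of which 128 were variable genes (Trav), 60 were joining genes (Traj) and 1 was the constant gene Trac. The RNA was that of CD8+ Tregs from the spleens of WT mice, sorted as CD8+CD44+Ly49+CD122+ cells. The 11 libraries comprised 3 young males and 3 young females, labelled 2 to 3 months old, and 2 middle-aged males and 3 middle-aged females, labelled 10 to 12 months old and called old in the labels. The published legend for the sequencing has 3 and 12 months instead. No allele was altered and no treatment is given, and the measurement is the RNA of a whole sorted population, so it holds no receptor of a single cell and no pairing of a variable with a joining gene. The question put to these genes was whether the alpha chain repertoire read from the RNA differs between young and middle-aged CD8+ Tregs.

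A T cell makes its alpha chain by joining a variable gene to a joining gene on chromosome 14 in the thymus, with the Rag1 and Rag2 recombinase, and the joined exon is then spliced to Trac. The first joins tend to use variable genes near the joining genes and joining genes far from Trac, and repeated joining on the same chromosome moves outward in both directions. The protein pairs with a beta chain and needs the CD3 chains to reach the cell surface. Some cell types carry almost invariant alpha chains, such as the Trav11 and Traj18 chain of invariant NKT cells and the Trav1 and Traj33 chain of MAIT cells, and Trav9 genes and Traj21 have been described in T cells restricted by Qa-1, the ligand with which CD8+ Tregs are associated.

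All 189 genes lie on the plus strand of chromosome 14 between positions 52427928 and 54224206 (GRCm38). The Trav genes end at 53977678, the Traj genes run from 54155005 to 54218842 and Trac from 54220521 to 54224206. In C57BL/6 mice a stretch of the Trav genes has been duplicated. The copies carry the letter d (39 genes) or n (34 genes) in their names and lie upstream of most of the 55 genes without a letter. The copies are alike enough for short reads to fail to tell them apart, and the sequences around the most used gene, Trav12-2, show this. The last 90 bases of the annotated gene Trav12-2 (chr14:53616825-53616914) and of its copies Trav12d-2 (chr14:52916337-52916426) and Trav12n-2 (chr14:53227311-53227400) are printed 5′ to 3′ from GENCODE M21, with capitals at bases that differ from Trav12-2.
Trav12-2: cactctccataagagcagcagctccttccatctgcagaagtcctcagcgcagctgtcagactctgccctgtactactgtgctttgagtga
Trav12d-2: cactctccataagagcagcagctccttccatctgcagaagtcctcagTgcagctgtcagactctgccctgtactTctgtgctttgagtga
Trav12n-2: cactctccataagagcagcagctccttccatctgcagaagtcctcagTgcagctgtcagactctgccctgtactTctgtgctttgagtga
Trav12-2 held 8807 counts over the 11 libraries. Trav12d-2 held 0 and Trav12n-2 held 1, and these copies are identical to each other over their transcripts. The Trav9 copies are shown for the same reason, with capitals at bases that differ from Trav9-2 (chr14:53591425-53591514), beside Trav9d-3 (chr14:52921023-52921112) and Trav9n-3 (chr14:53232013-53232102).
Trav9-2: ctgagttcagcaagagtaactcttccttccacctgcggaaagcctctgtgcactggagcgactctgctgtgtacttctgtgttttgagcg
Trav9d-3: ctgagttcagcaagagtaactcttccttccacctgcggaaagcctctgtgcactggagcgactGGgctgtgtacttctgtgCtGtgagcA
Trav9n-3: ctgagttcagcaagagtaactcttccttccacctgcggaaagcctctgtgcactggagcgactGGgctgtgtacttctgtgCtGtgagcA
Trav9-2 held 1448 counts. Trav9d-3 and Trav9n-3, identical to each other, held 0 and 1. How reads shared between genes were assigned is not given in the sources used here, so for such copies absent RNA and uncounted reads cannot be told apart.

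This limit was measured for every Trav gene. A window of 100 bases was called unique when no other gene of GENCODE M21 holds it in a transcript. The 39 Trav genes without a unique window (2 without a letter, 19 with d and 18 with n) held 53 counts in sum, with at most 11 in any of them and 24 at 0. Of the 89 genes with a unique window, 75 held at least 10 counts and 10 held none, and their median was 494 counts. The shares given below are therefore shares among the Trav genes that could be counted apart.

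**Figure D1:**
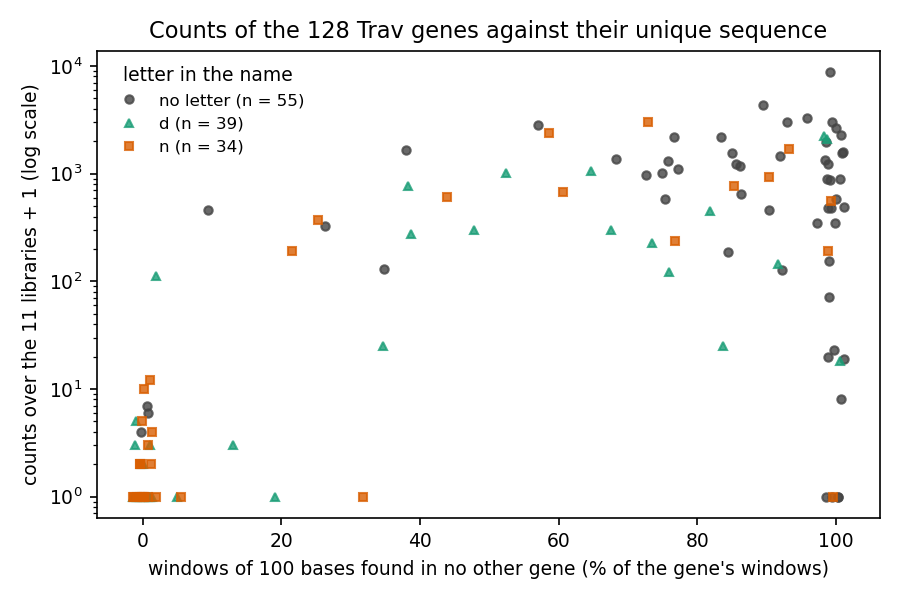
Each point is 1 of the 128 Trav genes, with the percentage of its windows of 100 bases found in no other gene on the x axis (moved slightly sideways so that points do not hide each other) and its counts over the 11 libraries plus 1 on a log y axis. The 39 genes at 0% hold at most 11 counts each, whatever their letter, and most genes with unique windows hold more than 100.

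Total counts per library ranged from 6135736 to 24394532. Young male 1 and young female 1 (8421396) were shallower than the other 9 libraries, which held 15662717 or more. The Trav genes together received 3760 to 12761 counts per library, the Traj genes 267 to 1451 and Trac 16567 to 47700. A Trav gene with no count in a library could still make up 0.0235% to 0.0798% of its Trav counts (3 counts). These limits and the intervals below cover counting error only. Of the markers of the sort, those of T cells (Cd3d, Cd3e, Cd3g, Cd247, Cd5 and Cd6) summed to 3309 to 7321 CPM (counts scaled to library size) in young and 3107 to 5777 in middle-aged libraries, and Cd8a with Cd8b1 to 2082 to 3594 and 1952 to 3554. The 3 CD4 T cell markers summed to at most 25.7 CPM in any library, far below the CD8 genes. Markers of other cell types were counted as well, with B cell markers at 1509 to 2027 CPM in young and 1308 to 3195 in middle-aged libraries. Myeloid markers were at 41.1 to 183 and 146 to 2627 and erythroid markers at 24.2 to 134 and 1.04 to 26.5. The median myeloid sum was 94.9 for young mice and 170 for middle-aged mice, and the latter lay below the highest young value. Lyz2, S100a8 and S100a9 had middle-aged means of 324 ± 419, 157 ± 304 and 169 ± 333 (SD). The SD exceeded the mean for each, so the upper end of the myeloid range does not describe the group as a whole. NK cell markers were at 760 to 1287 and 653 to 1293. The paper describes NK receptor genes and a need for Eomes in CD8+ Tregs themselves. The NK list, which holds Eomes, therefore cannot tell NK cells from the sorted cells. No gene of these lists passed an adjusted p of 0.05 for age in edgeR. At an unadjusted p under 0.05, 4 of 9 NK and 3 of 3 tested erythroid genes were lower and 3 of 6 myeloid genes higher in middle-aged libraries, where 0.99% of all genes tested were lower and 2% higher. Also higher at that level were 1 of 7 B cell genes (Igkc), 1 of 7 genes of the sort gate (Klra3) and Il18r1, the 1 gene tested of the invariant NKT and MAIT list. The part of these cells in the results below was not tested.

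Trav12-2 was the most counted Trav gene in all 11 libraries. Its share of the Trav counts was 8.99% to 11% in young libraries with a median of 10.1%. In the middle-aged males it was 11.6% and 12.3%, and in the middle-aged females 11.1%, 7.62% and 10.0%. The share was thus 10.0% ± 0.716 (SD, n = 6) in young and 10.5% ± 1.81 (n = 5) in middle-aged libraries, and the groups overlapped. The 95% Wilson interval of a single library's share was 1.08 to 1.91 points wide. Trav12-2 exceeded the Trav gene in the next place by 1.49 to 2.35 times, with a median of 2.01. That gene was Trav13-1 in 10 libraries and Trav14-2 in young male 1. Because longer genes collect more counts, shares were also computed from counts divided by gene length, and Trav12-2 (426 bases) led in all 11 libraries on this scale too, with a mean of 9.38%.

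The 10 Trav genes with the highest mean shares together took 41.9% ± 3.49 of the Trav counts (SD, n = 11). After Trav12-2 and Trav13-1 (mean 5.07%) came Trav14-2 (3.98%), Trav14-1 (3.69%), Trav3-3 (3.63%), Trav14n-3 (3.57%), Trav7-4 (3.22%), Trav19 (3.02%), Trav16n (2.76%) and Trav5-4 (2.75%). From Trav14-2 on, neighbours in this order differed by less than their SD between libraries, which was 0.430 to 1.00 points. Trav14-2, Trav14-1 and Trav3-3 were among the 10 most counted in all 11 libraries, whereas Trav5-4 was so in 4. Trav14n-3 is a gene of the duplicated stretch that has unique windows, with 3045 counts. By family, the Trav14 genes took 16.4% ± 2.69 of the counts, the Trav12 genes 13.5% ± 1.18, the Trav7 genes 12.5% ± 2.53 and the Trav13 genes 9.71% ± 1.62. The 55 genes without a letter took 75.2% ± 2.06, those with n 13.7% ± 1.15 and those with d 11.2% ± 1.53. The 20 annotated Trav pseudogenes took 1.32% ± 0.463. Of all 128 Trav genes, 55 had a count in every library, 34 had none in any, 18 had 1 to 9 in all and 8 had 10 to 99.

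**Figure D2:**
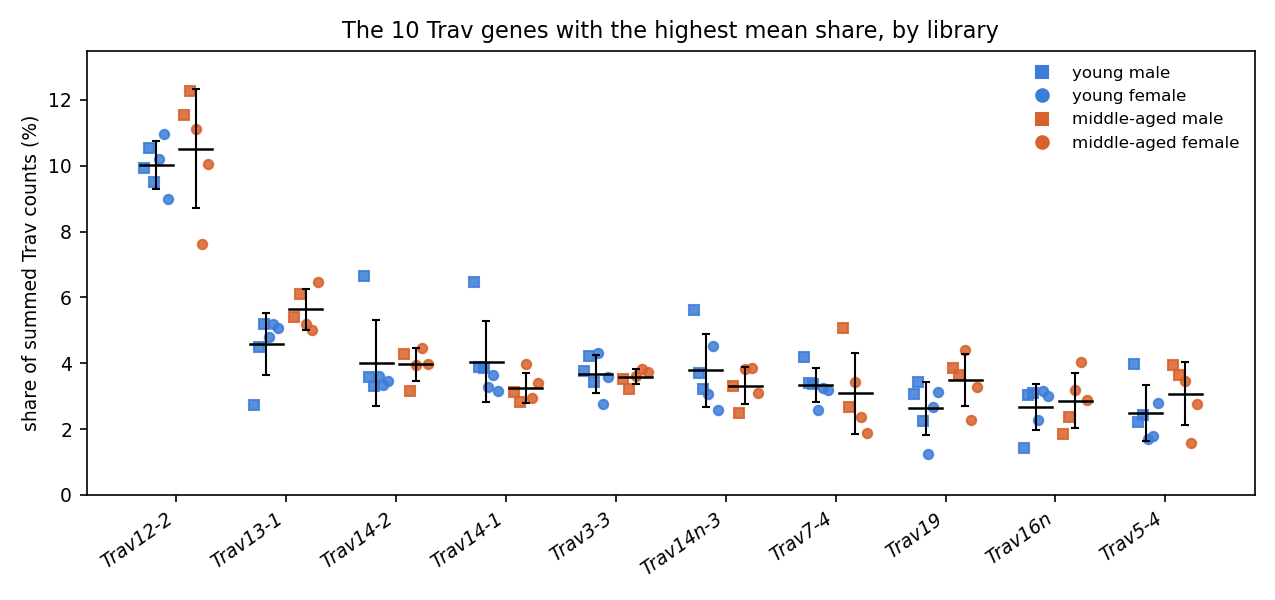
Share of the summed Trav counts (y axis, percent) for the 10 Trav genes with the highest mean share, with 1 point per library coloured by age and shaped by sex, and the mean and SD of each age group as black lines. Trav12-2 stands above all others in every library, and the age groups overlap for each of the 10 genes.

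The spread between libraries was larger than counting error. For the 68 Trav genes with a mean of at least 10 counts, the chi-square over the 11 libraries was 2.24 to 22.4 times its degrees of freedom, with a median of 8.02, where counting error alone gives about 1. The coefficient of variation of a share had a median of 35.5% and ran from 11.8% to 96.0%. Any 2 libraries differed in Trav usage by a mean Bray-Curtis distance of 0.161, on a scale from 0 for the same shares to 1 for no shared gene. The nearest pair was young male 3 and young female 3 (0.0828) and the farthest was young male 1 and middle-aged female 2 (0.267). The shallow libraries young male 1 and young female 1 were on average farthest from the others, at 0.244 and 0.205 against 0.131 to 0.171 for the other 9.

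The genes of known invariant chains gave a mixed picture. Trav11, of invariant NKT cells, held 3 counts in 1 library (young female 3) and none in the other 10, and Trav11d held none. Only 0.41% of the 100-base windows of Trav11 and 0% of those of Trav11d were unique. For these 2 genes absent RNA and uncounted reads therefore cannot be told apart. The related pseudogene Trav11n held 190 counts. Traj18, the joining gene of the same chain, was by contrast the most counted Traj gene in sum. Its share of the Traj counts was 8.09% ± 2.40 in young and 8.57% ± 3.11 in middle-aged libraries. Over the 11 libraries its mean of 8.31% was close to those of Traj17 (8.25%), Traj27 (8.17%) and Traj19 (7.83%). A count on a Traj gene does not by itself show that the gene was joined, as described below. Zbtb16, the transcription factor that defines invariant NKT and MAIT cells, had at most 20 counts and was at 0 in 6 libraries. Trav1, of MAIT cells, took 1.00% ± 0.263 and 1.13% ± 0.337 of the Trav counts, and Traj33 took 3.98% ± 2.82 and 2.89% ± 1.19 of the Traj counts. None of these values separated the age groups.

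The Trav9 genes took 5.95% ± 0.868 of the Trav counts in young libraries (4.60% to 7.18%) and 4.95% ± 0.331 in middle-aged libraries (4.48% to 5.26%). The groups overlapped. Summed by family and tested with all other genes in edgeR, the log2 fold change of the Trav9 level was −0.56 ± 0.24 (SE), with an unadjusted p of 0.0407 and an adjusted p of 1. Its most counted members were Trav9-2, with 1.66% of the Trav counts on average, Trav9-4 (1.48%) and Trav9-1 (1.15%). Trav9d-3 and Trav9n-3 had no unique window of 100 bases and held 0 and 1 counts, so the family share is almost wholly that of other members. For these copies absent RNA and uncounted reads cannot be told apart. Traj21 took 0% to 7.31% of the Traj counts in young and 1.55% to 4.31% in middle-aged libraries, and was at 0 in both shallow libraries.

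Young and middle-aged libraries were first compared gene by gene, in edgeR on all genes with sex as a covariate. Of the 189 genes, 97 passed the filter on low counts (68 Trav, 28 Traj and Trac). None was called at an adjusted p under 0.05, where 3 of all 13129 genes tested were (0.0229%). DESeq2 called none of the 97, where it called 112 of 13023 genes with an adjusted p (0.86%), and limma voom called none, where it called 136 of 13129 (1.04%). None of the 97 had an unadjusted p under 0.05 in edgeR, against 263 of 13129 genes higher (2%) and 130 lower (0.99%) in middle-aged libraries. DESeq2 gave 5 of the 97 an unadjusted p under 0.05, against 581 of 13023 genes (4.46%), and voom gave 6, against 1163 of 13129 (8.86%). For none of the 97 did the CPM values of the age groups stand apart, against 172 of 13129 genes (1.31%). The smallest p was that of Traj11, named with Trav7-1 after its values were seen, with a log2 fold change of −1.49 ± 0.69 (SE) and an unadjusted p of 0.0515 in edgeR (adjusted p = 1.00). Trav7-1 followed with −1.25 ± 0.59 and an unadjusted p of 0.0549 in edgeR. Trav12-2 itself had a log2 fold change of −0.22 ± 0.30 and Trav13-1 of 0.02 ± 0.27. No member had an adjusted p under 0.05 for sex, where 5 of 13129 genes had (0.0381%), or for the interaction of age with sex, where 0 of 13129 had (0%), and none of the 97 had an unadjusted p under 0.05 for either, against 99 and 158 genes of the 13129.

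Although no gene was called, the signs of the level differences leaned to one side. Of the 68 tested Trav genes 56 had a negative log2 fold change, with a median of −0.34, and of the 28 Traj genes 24, with a median of −0.46. Over all genes tested, 6513 were negative and 6616 positive, with a median of 0.003. As shares of their own segment, 43 Trav genes were lower and 25 higher, with a median log2 ratio of −0.04, and 18 Traj genes were lower and 10 higher. In the 9 deeper libraries, 51 of 69 tested Trav genes were negative and the median was −0.27. In bulk RNA, fewer cells with the receptor and less receptor RNA per cell cannot be told apart.

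Trac, the constant gene that every alpha chain carries, was at 1211 to 2992 CPM in young libraries, with a median of 1897. It was at 2173 and 1343 CPM in the middle-aged males and at 1946, 1143 and 1007 CPM in the middle-aged females. In edgeR its log2 fold change was −0.41 ± 0.32, with an unadjusted p of 0.223 and an adjusted p of 1.00. The mean log2 CPM differed by −0.39 (exact two-sided permutation test, p = 0.249), with a 95% interval from −1.14 to 0.35 from inverting that test. In the 9 deeper libraries this difference was −0.08 (p = 0.786, exact permutation test). That set leaves out the young libraries with the highest Trac levels, young male 1 and young female 1, and keeps the middle-aged libraries with the highest, male 1 and female 1. The summed Trav level differed by −0.32 on the log2 scale (interval −0.84 to 0.21, p = 0.188, exact permutation test). For both Trac and summed Trav, each young library was higher than every middle-aged library with the same replicate number, a pattern noticed after the values were seen. The numbers were not treated as pairing in these tests. An exact test that permutes ages within a number gave a p under 0.05 for both levels, the smallest that 108 arrangements can give. The call for both levels therefore depends on whether the numbers are treated as pairing.

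Relative to the CD3 genes, whose chains assemble with the receptor, the pattern was tighter. The middle-aged libraries held 0.458, 0.435, 0.456, 0.448 and 0.456 Trac counts per summed count of Cd3d, Cd3e and Cd3g. The young libraries held 0.457 to 0.598, with a median of 0.558. Only young female 1, at 0.457, lay within the middle-aged range. The log2 ratio differed by −0.27 (exact permutation test, p = 0.00649, not adjusted for the other scalings tried), and by −0.31 in the 9 deeper libraries, where the groups did not overlap (p = 0.00794, the smallest that 126 arrangements can give). The summed Trav counts gave a log2 difference of −0.21 on this scale in all libraries (exact permutation test, p = 0.242) and of −0.39 in the 9 deeper ones (p = 0.00794). The set of 9 was chosen after seeing the data, and it leaves out young female 1. On both scales that was the lowest young library, at 0.457 for Trac and 0.0844 for summed Trav. The smaller p values in the 9 libraries therefore depend on leaving it out. The number of Trav counts per 100 Trac counts was 25.3 ± 4.0 in young and 26.3 ± 1.76 in middle-aged libraries (exact permutation test, p = 0.647).

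**Figure D3:**
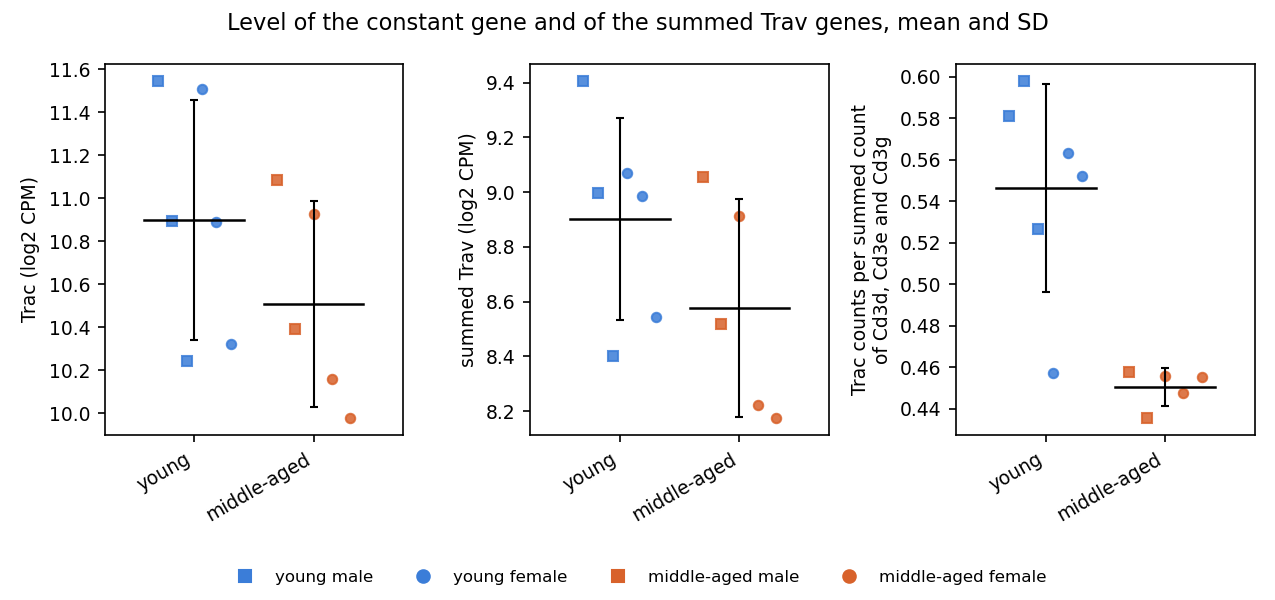
Trac and summed Trav levels (log2 CPM) and Trac counts per summed count of Cd3d, Cd3e and Cd3g, with 1 point per library and the mean and SD of each age group in black. The levels overlap between ages, whereas the 5 middle-aged ratios lie between 0.435 and 0.458 with young female 1 as the only young library within that range.

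The genes of the receptor complex and of joining were compared in the same edgeR fit. Of 12 receptor complex genes 11 were tested and none passed the test in either direction. The beta chain constant genes Trbc1 and Trbc2 had log2 fold changes of −0.27 ± 0.33 and −0.29 ± 0.36, Cd3d one of −0.26 ± 0.43 and Cd3e one of 0.01 ± 0.21. Ptcra, the partner of the beta chain before the alpha chain exists, had no count in 10 libraries and at most 8 in the other. Of 12 genes of V(D)J joining 9 were tested and none passed in either direction. Rag1 and Rag2 had no count in any library, and Dntt, which adds bases at the joins, had at most 55 counts and none in 2 libraries. The end joining genes Xrcc4, with a log2 fold change of −0.57 ± 0.43, Xrcc5 (−0.05 ± 0.18) and Xrcc6 (−0.02 ± 0.20) were measured in every library. Trdc, the delta constant gene that lies inside the alpha locus, was at 11.8 to 32.5 CPM in young and 12.9 to 19.5 CPM in middle-aged libraries. Delta chains also use the 10 Trav genes with dv in their names (9.11% ± 0.845 of the Trav counts), and their counts cannot be told apart from those of alpha chains.

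Usage as a whole was then compared by 1 value per library and exact two-sided permutation tests of the age labels (462 arrangements), whose smallest possible p is 0.00216. Values adjusted by the Benjamini-Hochberg method are over the 9 measures of usage and level tested so. Evenness, which is 1 when all 128 Trav genes are used alike, was 0.779 ± 0.0201 in young libraries (SD, n = 6), with values from 0.742 to 0.796 and a median of 0.784. The middle-aged males had 0.763 and 0.781 and the middle-aged females 0.772, 0.794 and 0.783, a mean of 0.778 ± 0.0116. The difference was −0.000193 (95% interval −0.0215 to 0.0234, exact permutation p = 0.991). The largest share, that of Trav12-2, differed by 0.499 points (interval −1.39 to 2.09, exact permutation p = 0.558). Thinned to the smallest Trav count, a library was expected to show 60 to 76.4 Trav genes in young and 71.2 to 75.6 in middle-aged mice, and the difference of 3.94 genes (interval −2.39 to 10.8, exact permutation p = 0.271) was 0.244 in the 9 deeper libraries. The lowest values, 60 and 63.0, were those of young male 1 and young female 1. The mean Bray-Curtis distance was 0.163 between libraries of different ages and 0.159 within an age (one-sided exact permutation test, p = 0.214). None of these measures differed between ages beyond the spread between libraries.

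**Figure D4:**
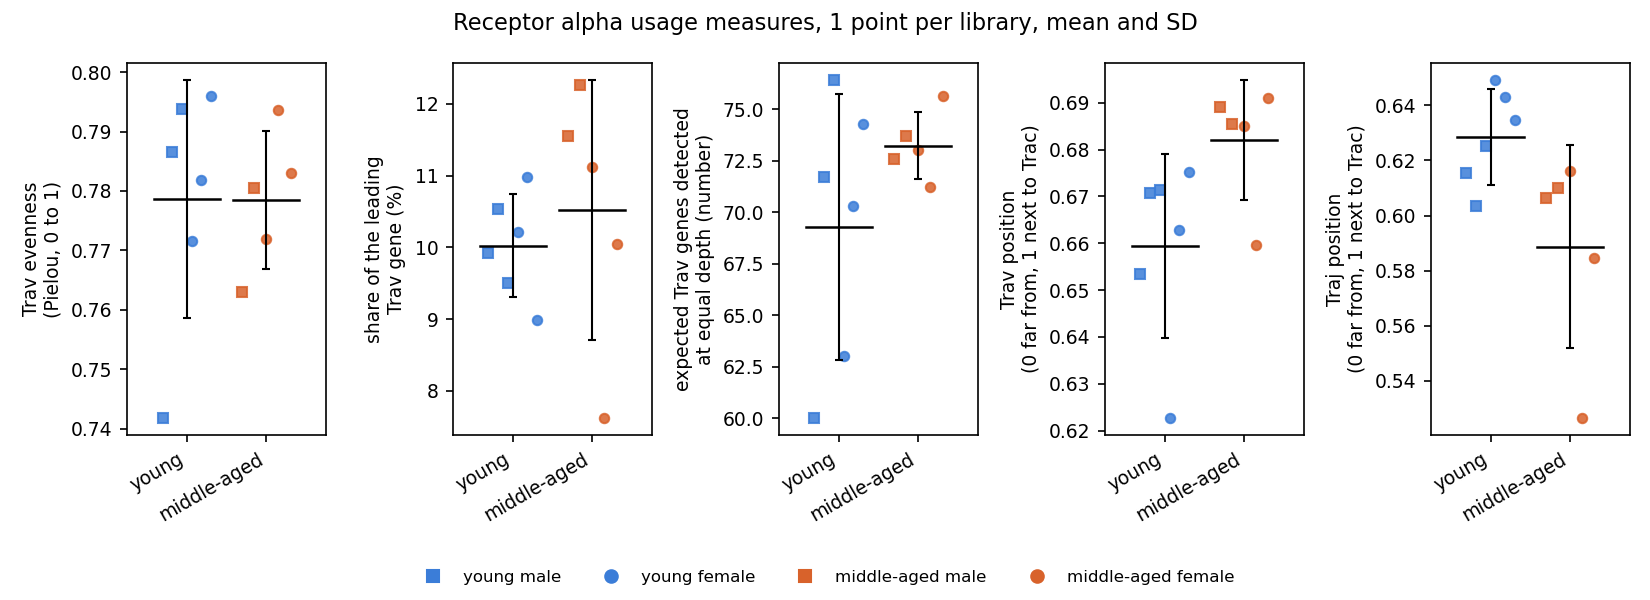
Trav evenness, the share of the leading Trav gene, the expected number of Trav genes at equal depth and the positions of Trav and Traj usage along the locus, with 1 point per library and the mean and SD of each age group in black. The y axes do not start at 0. The first 3 panels overlap widely, and in the last 2 the middle-aged libraries lie higher for Trav and lower for Traj with some overlap.

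The position of usage along the locus was the measure with the smallest p values. Each Trav gene was ranked from 0, farthest from Trac, to 1, nearest to it, and the ranks were averaged with the shares as weights. The Trav position was 0.659 ± 0.0196 in young libraries (0.623 to 0.675, median 0.667). In middle-aged libraries it was 0.682 ± 0.0128, with 0.689 and 0.686 in males and 0.685, 0.660 and 0.691 in females. Of the middle-aged libraries 4 lay above every young library and middle-aged female 2 lay among them. The difference was 0.0226 (interval 0.00172 to 0.0455, exact permutation p = 0.0433, adjusted p = 0.195). It was 0.0221 in males and 0.0249 in females. The difference did not pass the adjusted threshold, and in the 9 deeper libraries it was 0.0120 (exact permutation p = 0.143). The 32 genes nearest to Trac, from Trav14-1 to Trav23, took 48.0% ± 3.13 of the counts in young and 51.9% ± 2.55 in middle-aged libraries. The 32 genes farthest from Trac, from Trav1 to Trav5d-3, took 9.93% ± 1.70 and 8.97% ± 1.22.

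The genes that carried most of this difference, chosen after their values were seen, lay at both ends. Near Trac, Trav19 took 2.63% of the counts in young and 3.49% in middle-aged libraries, Trav14-3 2.02% and 2.93% and Trav21-dv12 0.680% and 1.44%. Far from Trac, Trav7d-4 took 1.51% and 1.02% and Trav7-1 0.988% and 0.550%. The ranges of the age groups overlapped for each of them. Of the 100-base windows 53.4% were unique in Trav7d-4 and 76.8% in Trav14-3, against 100% in Trav7-1, Trav19 and Trav21-dv12. How reads shared between copies were assigned is not given, so the rank of a count on such a copy is approximate.

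The Traj genes are 29 to 72 bases long, and they held 10.6 ± 2.81 counts per 100 Trav counts in young and 10.4 ± 3.17 in middle-aged libraries. A joined segment is recognised by a phenylalanine and glycine motif, searched here on the plus strand as TTNGGNNNNGG. The pattern was found in 44 of the 51 Traj genes annotated as functional and in 2 of the 9 pseudogenes. The search ignored the reading frame, and TTN can also code for leucine, so a match does not by itself show the motif. A missing match does not show a gene that cannot be joined either, as Traj33 is annotated as functional and has none. The 5 Traj genes with the highest mean shares, the MAIT gene Traj33 and Traj50, on which a result below turns, are printed 5′ to 3′ from GENCODE M21 with the motif in capitals where it was found.
Traj18: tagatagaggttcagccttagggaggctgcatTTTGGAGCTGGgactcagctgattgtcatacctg
Traj17: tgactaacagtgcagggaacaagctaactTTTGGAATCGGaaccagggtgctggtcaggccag
Traj27: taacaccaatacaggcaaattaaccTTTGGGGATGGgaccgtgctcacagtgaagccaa
Traj19: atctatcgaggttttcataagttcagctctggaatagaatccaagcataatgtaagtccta
Traj8: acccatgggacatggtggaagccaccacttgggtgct
Traj33: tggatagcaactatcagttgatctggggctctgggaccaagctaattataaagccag
Traj50: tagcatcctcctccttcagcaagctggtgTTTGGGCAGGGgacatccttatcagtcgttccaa
Traj18 (chr14:54200777-54200842) took 8.31% ± 2.61 of the Traj counts over the 11 libraries, Traj17 (chr14:54201775-54201837) 8.25% ± 2.71, Traj27 (chr14:54192303-54192361) 8.17% ± 3.22, Traj19 (chr14:54200386-54200446) 7.83% ± 2.28 and the pseudogene Traj8 (chr14:54209918-54209954) 3.83% ± 1.5. These SDs exceed the differences between the first 4, and the first place fell to Traj18 in 4 libraries, Traj27 in 3 and Traj17 and Traj19 in 2 each. The Wilson interval of Traj18 in a single library was 3.15 to 5.68 points wide.

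The 14 Traj genes without a match to this pattern, among them Traj19 and Traj8, together held 24.4% ± 3.00 of the Traj counts (20.2% to 28.4%), and the 9 pseudogenes held 7.34% ± 1.22. The RNA of a rearranged gene runs through every joining gene downstream of the joined one until it is spliced, so a count on a Traj gene does not by itself show that the gene was joined. Unspliced and joined reads were not told apart in these counts.

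Traj evenness was 0.799 ± 0.0704 in young and 0.840 ± 0.0334 in middle-aged libraries, a difference of 0.0409 (interval −0.0340 to 0.121, exact permutation p = 0.301) that was −0.00322 in the 9 deeper libraries. The lowest values were 0.703 and 0.720, in young male 1 with 267 Traj counts and young female 1 with 487. The Traj position, on the same scale from 0 to 1, was 0.629 ± 0.0173 in young libraries (0.603 to 0.649, median 0.630). It was 0.606 and 0.610 in the middle-aged males and 0.616, 0.526 and 0.585 in the middle-aged females, a mean of 0.589 ± 0.0368. The difference of −0.0398 (interval −0.0781 to −0.00782, exact permutation p = 0.0216, adjusted p = 0.195) placed middle-aged usage farther from Trac. It did not pass the adjusted threshold. It was −0.00643 in males and −0.0666 in females, and this contrast of the sexes was not past 0.05 either (200 permutations of sex within age, exact p = 0.07). Without middle-aged female 2 the difference was −0.0242 (exact permutation p = 0.0619), 1.64 times smaller, and in the 9 deeper libraries it was −0.0379 (p = 0.0794).

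The joining gene that contributed most to this difference was Traj50 (chr14:54167590-54167652), chosen after its values were seen. Its share of the Traj counts was 0% to 2.32% in young libraries, with a median of 1.08%. It was 2.83% and 2.44% in the middle-aged males and 3.85%, 4.26% and 3.86% in the middle-aged females, so the age groups did not overlap, which held for 1 of the 96 tested Trav and Traj genes (1.04%). Traj50 held 203 counts in all, its CPM values overlapped between the ages, and in edgeR its log2 fold change was 1.31 ± 0.79 with an unadjusted p of 0.126. Traj12, nearer to Trac, took 0.749% to 11.7% of the counts in young and 0.581% to 3.29% in middle-aged libraries. The 15 Traj genes farthest from Trac, Traj61 to Traj47, took 9.73% ± 2.90 of the Traj counts in young and 14.5% ± 2.91 in middle-aged libraries, and the 15 nearest to Trac, Traj16 to Traj1, took 24.1% ± 2.68 and 18.4% ± 3.91.

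**Figure D5:**
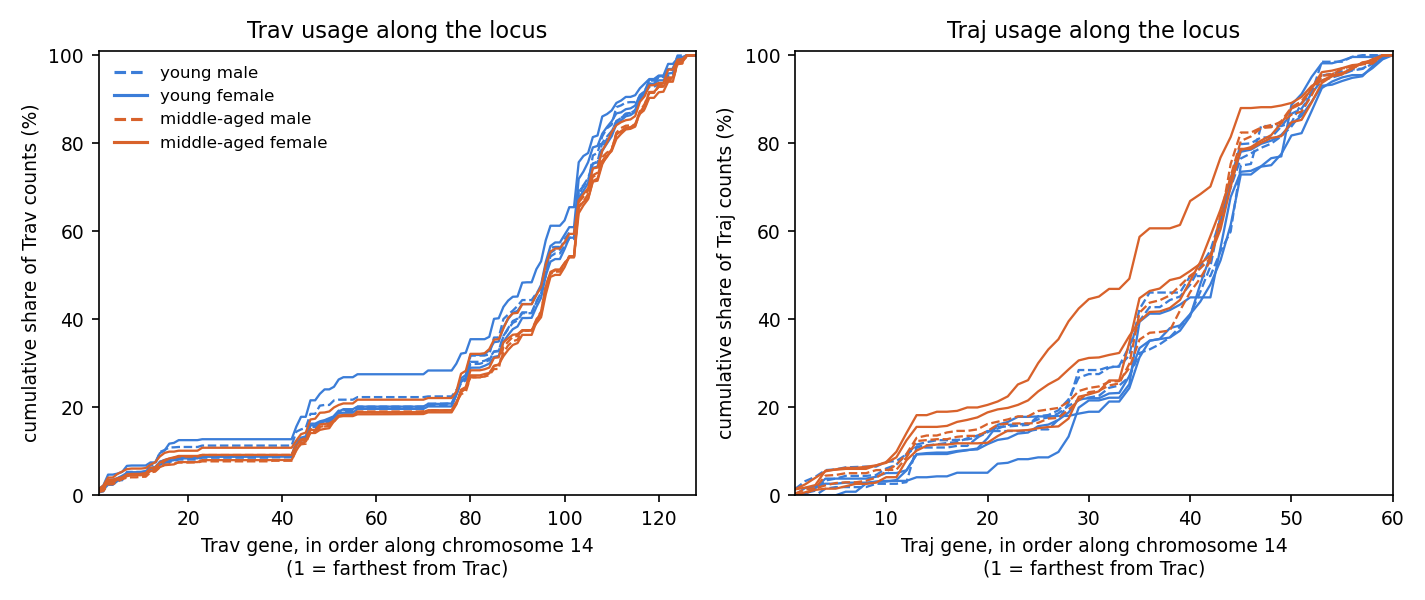
Cumulative share of the Trav (left) and Traj (right) counts of each library, with genes in their order along chromosome 14 from the farthest from Trac, coloured by age with males dashed and females solid. Most middle-aged curves run below the young ones for Trav, and for Traj middle-aged female 2 rises earliest and young female 1 latest.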

How the data were processed

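RNA from sorted CD8+ Tregs of 11 wild-type mouse libraries was sequenced after SMARTer cDNA synthesis. The authors deposited unnormalized counts per Ensembl gene, all whole numbers, with GRCm38 coordinates. The submitters' processing notes name kallisto and mm10, without a version. Strandedness and the handling of reads shared between genes are not given in the sources used here, and 0 value columns were left unused. Columns of gene length and position are those deposited, and all 189 members have the start and end of GENCODE M21, from which sequences were read.

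Counts were tested with edgeR 4.0.16 in R 4.3.3 (TMM factors, filterByExpr on age group, robust glmQLFit, glmQLFTest, sex and age as terms), with Benjamini-Hochberg adjustment over all 13129 genes tested and a threshold of 0.05. For these data the paper reports differentially expressed genes, shown in a volcano plot and a heatmap, and a gene set enrichment analysis. It names no test or threshold per gene. Log2 CPM was computed with TMM factors after adding a prior count of 2. Shares, Pielou evenness, Bray-Curtis distances and positions were computed from raw counts in Python 3.11.15, with exact permutation tests. Intervals are shifts not rejected by the two-sided test at 0.05, on a grid. Limma 3.58.1, DESeq2 1.42.0, other scalings, filters and sets of Trav genes, thinning (20 draws), restricted permutations and libraries left out were alternatives. The steps were tested on simulated data.

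Named are Trac, the 10 Trav and 5 Traj genes with the highest mean share, the leading Trav gene of every library, members past an adjusted or unadjusted p of 0.05, genes of invariant chains, and lists for V(D)J joining, the receptor complex and cell types. Of the 5 gamma delta markers 2 were in the table under the names searched. Members and lists were chosen with earlier results of these data known. The 9 deeper libraries and 2 further alternatives (Traj counts thinned, and Trav genes with unique windows) were chosen after seeing the data. The study describes replicates as biologically independent, and libraries of a group differed far beyond counting error (chi-square per degree of freedom of 59.9 to 293).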

Additional observations from a re-analysis of the deposited data

Results flagged for a closer look

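In 60 groups of 5 or 6 libraries (the usage measures and the shares of named genes in each age), 5 had a library apart from the others by Dixon's criterion, and chance flags about 1 group in 20. The Trav position of middle-aged female 2, at 0.660, lay below the other 4 middle-aged libraries, of which the nearest was at 0.685. The share of Trav13-1 in young male 1 was 2.74%, against 4.49% in the nearest young library, while its shares of Trav14-2 (6.65%, nearest 3.62%) and Trav14-1 (6.46%, nearest 3.89%) were the highest of the young group. The share of Trav9-4 in young female 1 was 0.543%, against 1.43% in the nearest young library. Young male 1 and young female 1 are the libraries with the fewest counts, and the part of depth in these values was not tested. No measure and no member had an age effect that differed between the sexes at the threshold used.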

How the results depend on the processing

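No gene of the receptor alpha locus was called for age under any alternative run, whether the scaling, the test, the filter on low counts, the sex term or 1 library was changed. The counts of genes called and the values for a measure of usage or level were tallied together. Of these, 153 kept their count, or their direction and their side of 0.05. Among the usage and level values 12 turned, 14 lost and 5 gained an unadjusted p of 0.05. The 240 values for single genes all stayed within their spread or on their side of it. The age difference in Trav evenness, near 0, was 0.0174 by family and ranged from −0.00757 to 0.00368 with 1 library left out. That in the largest share was −0.703 points by family. The Trac level relative to Cd3d, Cd3e and Cd3g fell by 0.27 (log2, exact permutation p = 0.00649). In the 9 deeper libraries the Trav position difference was 0.0120, the Traj position difference −0.0379 and the Traj evenness difference −0.00322, and no p was under 0.05. With 1 library left out the Trav position difference was 0.0153 (without young female 1) to 0.0283 and the p rose above 0.05 in 7 of 11 cases, the Traj position difference was −0.0467 to −0.0242 (without middle-aged female 2) with the p above 0.05 in 5 of 11, and the distance between ages was −0.000498 to 0.00951, with an exact permutation p of 0.0397 without young male 1. Where a cause is not plain from the libraries left out, the cause was not tested.

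Replicate numbers were not treated as pairing, since 13 of the 15 pairs of libraries with the same number deviated together with a correlation over 0.1, not all of them. The median correlation was nevertheless 0.353 for these pairs, against −0.186 for the 30 pairs with different numbers, of which 8 were over 0.1. Libraries with the same number thus tended to deviate together, and the main tests leave this out. The deviations were taken from the means of age and sex groups of 2 or 3 libraries, so they cancel out within a group. Correlations of different numbers therefore partly mirror those of the same number and are not separate evidence. For example, young male 1 had 0.323 with middle-aged male 1 and −0.323 with middle-aged male 2. With a replicate block the age difference in log2 CPM was −0.39 for summed Trav and −0.48 for Trac. The exact permutation p was 0.00926 for each, the smallest that 108 arrangements can give. With the block the difference in Traj evenness was 0.0486 (exact permutation p = 0.0463) and that in Trav evenness was 0.00058. The block changed no other call, and in edgeR it called none of the 97 genes (smallest adjusted p 0.124) and 19 of all 13129, with 7 of the 97 and 1164 of the 13129 (8.87%) under an unadjusted p of 0.05. Depth limited the Traj genes most, with 267 to 1451 counts in a library.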
